A study of Mus musculus with 10 samples.

Results

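*Spp1*, *Gpnmb*, *Fabp5*, *Trem2*, *Cd9* and *Cd63* are 6 genes that are often used together to mark lipid-associated macrophages of scarred tissue. They were picked by name with earlier results of these data known, and all 6 were found in the deposited table of 17001 genes. Bulk RNA was sequenced from 3 macrophage populations sorted by fluorescence-activated cell sorting (FACS) from hindlimb muscle of mice 4 weeks old. Gal-3+ macrophages (4 libraries) were the gal-3hi Folr2lo cells of C57BL/10ScSn-Dmdmdx/J (mdx) mice, which lack dystrophin and model Duchenne muscular dystrophy. Monocyte-derived macrophages (MDMs, 3 libraries) were the CD52+ gal-3lo Folr2- cells of mdx muscle, and skeletal muscle resident macrophages (SkMRMs, 3 libraries) were the Folr2+ cells of wild-type (WT) muscle. The study names C57BL/10 mice as the WT controls of its mdx mice. Every SkMRM library came from WT mice and every other library from mdx mice, so genotype and population cannot be told apart in a comparison with SkMRMs, and both such comparisons share the same 3 SkMRM libraries.

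Lipid-associated macrophages are known from obese fat, atheroma and fibrotic organs, where they take up dead cells and lipid. *Trem2* encodes the receptor that senses lipid and cell debris, *Fabp5* a carrier that moves fatty acids through the cytosol, and *Gpnmb* a membrane glycoprotein of lysosome-rich phagocytes. *Spp1* encodes osteopontin, a secreted matrix protein that binds integrins and CD44, and *Cd9* and *Cd63* encode tetraspanins, which organize the plasma membrane and the late endosome, the compartment from which exosomes are released.

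The 6 genes lie on 5 chromosomes of GRCm38 (GENCODE M21). *Spp1* is at chr5:104435118-104441050, *Gpnmb* at chr6:49036546-49070929, *Fabp5* at chr3:10012548-10016607, *Trem2* at chr17:48346401-48354147 and *Cd63* at chr10:128900989-128912822, all on the plus strand, and *Cd9* is at chr6:125460266-125494791 on the minus strand.

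The values are read counts per gene divided by a size factor per library, called normalized counts here. Values of gal-3+ macrophages are in the order of libraries mdx1, mdx3, mdx4 and mdx5, those of MDMs in the order mdx1, mdx4 and mdx5, and those of SkMRMs in the order WT1, WT2 and WT3. Reads recovered from the table came to 23575186 to 40307596 in gal-3+ libraries, 22395027 to 29186317 in MDM libraries and 24323114 to 75907638 in SkMRM libraries, and the lowest number of reads behind any value of the 6 genes was 201. The labels call the libraries of a population biological replicates, but do not say whether gal-3+ and MDM libraries with the same number came from the same mouse. *Lgals3*, which encodes gal-3, had 43698 ± 2161 in gal-3+ macrophages, 46239 ± 5599 in MDMs and 4172 ± 343 in SkMRMs (mean ± SD, with n = 4, 3 and 3 here and below), so its mRNA did not pass the test between gal-3+ macrophages and MDMs (log2 fold change -0.08, adjusted p = 0.51, limma). *Folr2* had 2508 ± 207 in gal-3+ macrophages, 124 ± 37.9 in MDMs and 14531 ± 197 in SkMRMs. *Cd52* had 1883 ± 117 in gal-3+ macrophages, 3954 ± 382 in MDMs and 117 ± 26.8 in SkMRMs. The macrophage genes *Csf1r* and *Cd68* were detected in every library, with 52039 ± 4973 in gal-3+ macrophages, 33113 ± 1832 in MDMs and 60090.0 ± 3107 in SkMRMs for *Csf1r*.

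Markers of other cells differed between the populations, and their part in the results was not tested. Summed over 14 fibroblast genes, led by *Col1a1* and *Col1a2*, gal-3+ libraries held 70822 to 100570.0 normalized counts, MDM libraries 87560 to 98194 and SkMRM libraries 580937 to 1386276. A list of 12 muscle genes summed to 9602 to 11722 in gal-3+ libraries, 3588 to 3833 in MDM libraries and 12410 to 20035 in SkMRM libraries. In the same order, 12 endothelial genes summed to 15398 to 20781 in gal-3+ libraries, 9232 to 10850.4 in MDM libraries and 7901 to 19769 in SkMRM libraries. No list had a marker at 0 in all libraries of a population. In bulk samples, fewer cells of a type and less RNA per cell cannot be told apart.

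In gal-3+ macrophages 5 of the 6 genes were higher than in SkMRMs, *Spp1*, *Gpnmb*, *Fabp5*, *Trem2* and *Cd9*, by 7.42-fold to 498-fold. MDMs were also above SkMRMs in each of these 5 genes, by 3.79-fold to 470.2-fold. A call needed both a 2-fold difference and a Benjamini-Hochberg adjusted p below 0.01 over all 17001 genes (limma), and by that rule 5.34% of all genes were higher in gal-3+ macrophages relative to SkMRMs and 8.81% were higher in MDMs than in SkMRMs. Between the dystrophic populations 2 of the 6 genes were above MDMs in gal-3+ macrophages, *Trem2* and *Cd63*, against 8.19% of all genes, and none was lower. The libraries of gal-3+ macrophages and SkMRMs did not overlap in any of the 6 genes, with gal-3+ macrophages higher in each, as in 24.2% of all genes. MDMs and SkMRMs did not overlap in all 6 either, with MDMs higher in 5, as in 29.5% of all genes, and lower in *Cd63*, as in 34.9%. Gal-3+ macrophages lay above MDMs without overlap in 3 of the 6 genes, *Gpnmb*, *Trem2* and *Cd63*, as did 20.8% of all genes, and below them in none, against 21.6%. Across the 6 genes the median log2 fold change was 4.57 for gal-3+ macrophages over SkMRMs, 4.36 for MDMs over SkMRMs and 0.62 for gal-3+ macrophages over MDMs, and over all genes the medians were -0.11, -0.17 and -0.03 in the same comparisons. The study names *Spp1*, *Gpnmb*, *Fabp5* and *Trem2* as high in its single-cell cluster of gal-3+ macrophages. Since the 6 genes were chosen with earlier results known, their counts beside the shares of all genes are a description and not a test.

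**Figure D1:**
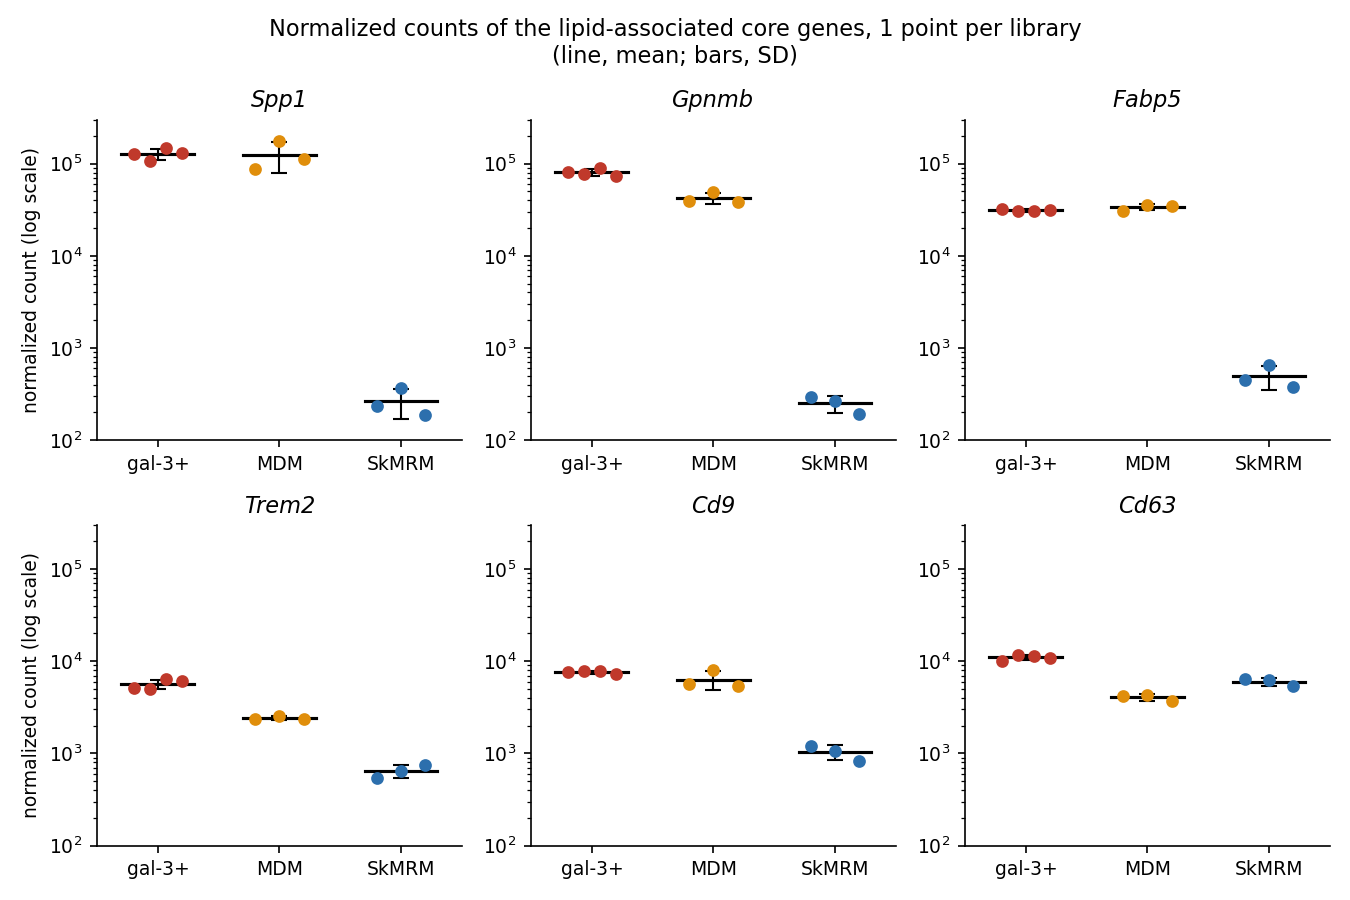
Normalized counts of the 6 genes on a log axis, with 1 point for each library of gal-3+ macrophages, MDMs and SkMRMs, a line at the mean and bars of 1 SD. *Spp1*, *Gpnmb* and *Fabp5* lie far above SkMRMs in both dystrophic populations, while *Cd63* in SkMRMs (5369 to 6358) lies between gal-3+ macrophages (10049 to 11771) and MDMs (3695 to 4312).

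*Spp1* encodes osteopontin, the secreted ligand of the group. Its normalized counts were 127539, 106053, 147767 and 129463 in gal-3+ macrophages, 87938, 174549 and 111607 in MDMs and 234, 372 and 187 in SkMRMs. All 7 dystrophic libraries lay above all 3 SkMRM libraries, and gal-3+ macrophages and MDMs overlapped. For gal-3+ macrophages over SkMRMs the log2 fold change was 8.96 (standard error 0.21, adjusted p = 5.4e-15), which ranked 1 of 17001 genes. For MDMs over SkMRMs it was 8.88 (standard error 0.22, adjusted p = 5.2e-15), which ranked 7. Between gal-3+ macrophages and MDMs it was 0.08 (standard error 0.21, adjusted p = 0.78), with a 95% interval of -0.36 to 0.52, which leaves room for a difference of either sign. MDM libraries spread widely in *Spp1*, with an SD of 0.50 on the log2 scale, against a median SD of 0.11 over 4884 genes with a mean above 1000. MDM library mdx4 was the highest of all 10 libraries and MDM library mdx1 the lowest of the 7 dystrophic ones. Leaving out MDM library mdx1 moved the log2 fold change between gal-3+ macrophages and MDMs to -0.14, and leaving out MDM library mdx4 moved it to 0.36, neither of which passed the test.

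*Gpnmb* is best known from melanocytes, osteoclasts and lysosome-rich macrophages. Its normalized counts were 81779, 76263, 90493 and 74000.3 in gal-3+ macrophages, 39143, 48867 and 37996 in MDMs and 295, 265 and 194 in SkMRMs. The populations stood in 3 separate ranges, with gal-3+ macrophages highest, MDMs below them and SkMRMs far below both. The log2 fold change was 8.34 (standard error 0.12, adjusted p = 1.9e-17) between gal-3+ macrophages and SkMRMs, ranked 2 of 17001, and 7.39 (standard error 0.13, adjusted p = 2.1e-16) for MDMs over SkMRMs, ranked 20. For gal-3+ macrophages over MDMs it was 0.95 (standard error 0.12, adjusted p = 1.3e-05), a 1.93-fold difference with a 95% interval of 0.69 to 1.20 on the log2 scale. That difference was larger than the spread between libraries but stayed under the 2-fold threshold. Without MDM library mdx4, the highest MDM library in this gene, it was 1.06 (adjusted p = 2.4e-05, limma) and passed.

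*Fabp5* is a cytosolic fatty acid carrier of epidermis, fat and macrophages. Normalized counts of *Fabp5* were 32256, 30317, 30560.1 and 31096 in gal-3+ macrophages, 30925, 35359 and 34984 in MDMs and 453, 656 and 380.1 in SkMRMs. Gal-3+ macrophages and MDMs overlapped, and both lay far above SkMRMs. The log2 fold change was 6.0 (standard error 0.13, adjusted p = 1.4e-15) in gal-3+ macrophages over SkMRMs and 6.12 (standard error 0.13, adjusted p = 1.2e-15) for MDMs over SkMRMs. For gal-3+ macrophages over MDMs it was -0.12 (standard error 0.13, adjusted p = 0.48), and the 95% interval of -0.38 to 0.15 held no difference of 2-fold in either direction. The 4 gal-3+ libraries agreed closely in this gene, with an SD of 0.04 on the log2 scale. The mouse annotation holds a processed pseudogene of *Fabp5*, *Fabp5l2*, which could share reads with it, and its share was not tested.

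*Trem2* encodes the receptor for lipids, lipoproteins and cell debris. Normalized counts were 5183, 4992, 6367 and 6085 in gal-3+ macrophages, 2348, 2572 and 2354 in MDMs and 544, 645 and 742 in SkMRMs. No library of one population overlapped another, and the order was gal-3+ macrophages, MDMs, SkMRMs. The log2 fold change was 3.14 (standard error 0.11, adjusted p = 4.2e-13) in gal-3+ macrophages over SkMRMs and 1.92 (standard error 0.12, adjusted p = 3.8e-10) for MDMs over SkMRMs. Between the dystrophic populations it was 1.22 (standard error 0.11, adjusted p = 2.7e-07) with gal-3+ macrophages over MDMs, a 2.32-fold difference.

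*Cd9* encodes a tetraspanin of the cell surface that associates with integrins. Libraries held 7592, 7793, 7787 and 7227 in gal-3+ macrophages, 5638, 7959.7 and 5351 in MDMs and 1207, 1062 and 835 in SkMRMs, in normalized counts. Both dystrophic populations lay above SkMRMs in every library, and MDM library mdx4 was the highest of all 10, while the other 2 MDM libraries lay below every gal-3+ library. The log2 fold change was 2.89 (standard error 0.13, adjusted p = 8.1e-12) in gal-3+ macrophages over SkMRMs and 2.60 (standard error 0.14, adjusted p = 5.3e-11) for MDMs over SkMRMs. For gal-3+ macrophages over MDMs it was 0.29 (standard error 0.13, adjusted p = 0.082), with a 95% interval of 0.02 to 0.56. Without MDM library mdx4 it was 0.47 (adjusted p = 0.006, limma), still under 2-fold. *Cd9* shares its locus with the antisense gene *Gm28809* and the transcript gene *Gm26728* on the other strand, and although the library kit keeps strand, the setting used to count is not given in the sources used here. *Gm26728* averaged 10.9 ± 3.90 normalized counts in gal-3+ macrophages, 18.0 ± 6.19 in MDMs and 1.68 ± 1.75 in SkMRMs, and *Gm28809* averaged at most 20.6 in any population, against at least 835 normalized counts of *Cd9* in every library.

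*Cd63*, the tetraspanin of late endosomes, lysosomes and exosomes, had another pattern. Its normalized counts were 10049, 11771, 11402 and 10812 in gal-3+ macrophages, 4222, 4312 and 3695 in MDMs and 6358, 6337 and 5369 in SkMRMs. Gal-3+ macrophages were highest and MDMs lowest, with SkMRMs between them and no overlap among the 3. For gal-3+ macrophages over MDMs the log2 fold change was 1.43 (standard error 0.08, adjusted p = 1.7e-09), the largest of the 6 genes in that comparison. It was 0.87 (standard error 0.08, adjusted p = 2.1e-07) in gal-3+ macrophages over SkMRMs and -0.56 (standard error 0.09, adjusted p = 4.4e-05) for MDMs over SkMRMs, both under 2-fold. At an adjusted p under 0.01 and any fold, 18.0% of all genes were higher in gal-3+ macrophages relative to SkMRMs, and for MDMs relative to SkMRMs 22.3% were higher and 23.5% lower. *Cd63* is also expressed by stromal cells, whose markers were highest in SkMRM libraries, and their part in its SkMRM level was not tested.

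**Figure D2:**
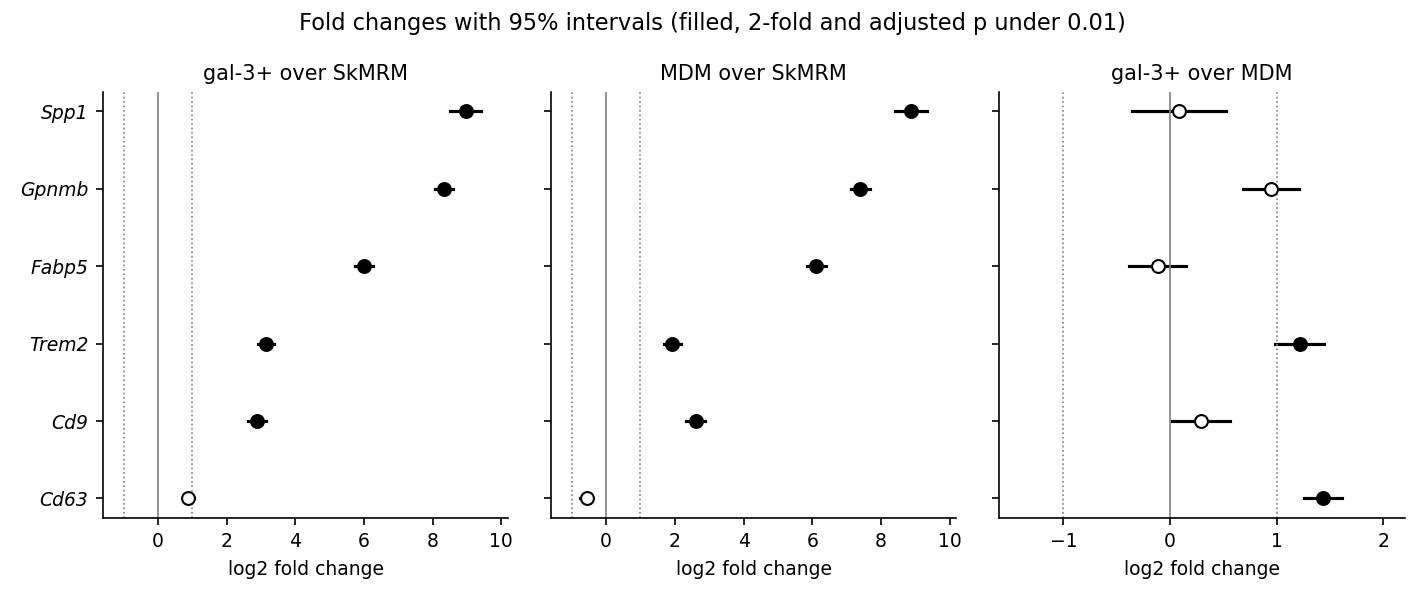
Log2 fold changes of the 6 genes with 95% intervals in the 3 comparisons. Filled points passed a 2-fold change at an adjusted p under 0.01, dotted lines mark 2-fold, and the right panel has a narrower axis. Between gal-3+ macrophages and MDMs only *Trem2* (1.22) and *Cd63* (1.43) are filled, with *Gpnmb* (0.95) just under the dotted line.

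The 6 genes differed widely in level. Per kilobase of its longest coding transcript, *Spp1* ranked 7 of 13442 coding genes in gal-3+ macrophages, 8 in MDMs and 6260 in SkMRMs. *Fabp5* ranked 26 in gal-3+ macrophages, 23 in MDMs and 3030 in SkMRMs, and *Gpnmb* ranked 41, 135 and 8930 in the same populations. *Cd63* ranked 138 in gal-3+ macrophages, 487 in MDMs and 217 in SkMRMs, and was the only 1 of the 6 among the 1000 highest genes of SkMRMs. *Cd9* ranked 238 in gal-3+ macrophages, 336 in MDMs and 1822 in SkMRMs, and *Trem2* ranked 287, 830 and 2589. Together the 6 genes took 0.754 to 0.922% of the reads of gal-3+ libraries, 0.481 to 0.776% of those of MDM libraries and 0.0281 to 0.0334% of those of SkMRM libraries. *Spp1* alone took 0.337 to 0.463% in gal-3+ libraries and 0.248 to 0.495% in MDM libraries. In both dystrophic populations library mdx4 was the highest for *Spp1*, *Gpnmb* and *Trem2*.

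**Figure D3:**
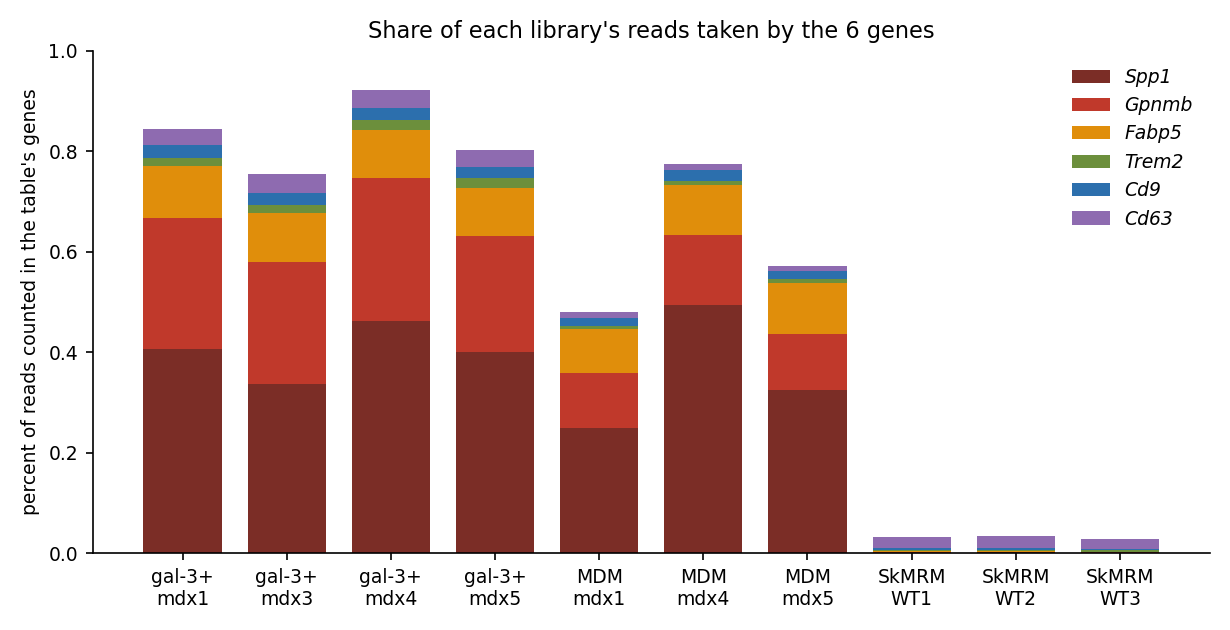
Share of each library's reads, in percent of the reads counted in the table's genes, taken by each of the 6 genes, as stacked bars for the 4 gal-3+, 3 MDM and 3 SkMRM libraries. *Spp1* is the largest part of every dystrophic bar, and the SkMRM bars reach at most 0.0334%.

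Ratios between the genes within a library depend little on the size factor, and several of the pairs chosen here separated the populations. *Gpnmb* over *Spp1* ran from -0.81 to -0.48 on the log2 scale in gal-3+ macrophages, from -1.84 to -1.17 in MDMs and from -0.49 to 0.33 in SkMRMs, where the gal-3+ and SkMRM ranges overlapped. *Trem2* over *Fabp5* ran from -2.64 to -2.26 in gal-3+ macrophages, from -3.89 to -3.72 in MDMs and from -0.02 to 0.96 in SkMRMs. For *Cd63* over *Cd9* the log2 ratio was 0.40 to 0.60 in gal-3+ macrophages, -0.88 to -0.42 in MDMs and 2.40 to 2.69 in SkMRMs. Gal-3+ macrophages and MDMs did not overlap in any of these ratios, which were not tested. In each pair the first gene had the larger log2 fold change for gal-3+ macrophages over MDMs. The direction of this separation therefore follows from those fold changes.

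**Figure D4:**
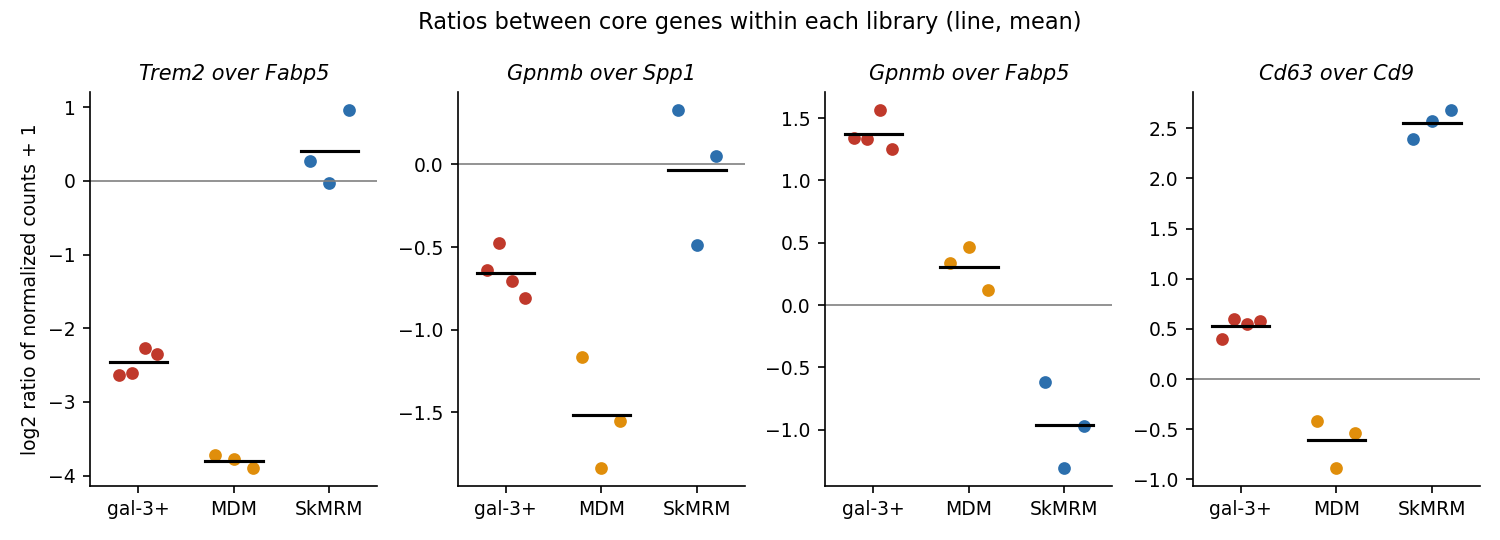
Log2 ratios of normalized counts plus 1 between pairs of the 6 genes, with 1 point per library of gal-3+ macrophages, MDMs and SkMRMs and a line at the mean. The first gene of each pair had the larger log2 fold change for gal-3+ macrophages over MDMs. In all 4 panels the gal-3+ and MDM points are separate, as for *Gpnmb* over *Fabp5*, at 1.25 to 1.57 in gal-3+ macrophages and 0.12 to 0.47 in MDMs.

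Over the 10 libraries, log2 values of *Spp1*, *Gpnmb*, *Fabp5*, *Trem2* and *Cd9* correlated with each other at 0.91 to 1.00, and *Cd63* correlated with those 5 genes at 0.18 to 0.54. The points share their 3 populations and 10 libraries, and the values are a description. Among 10865 other genes with a mean of at least 100, the 5 most like each gene by Pearson correlation over the 10 libraries were as follows, all at 0.98 to 1.00. *Spp1* was nearest to *Lgals3*, *Ptk2b*, *Esyt1*, *Cyp4f18* and *Galnt6*. *Gpnmb* was nearest to *Mpeg1*, *Cyp4f18*, *Nr1h3*, *Ly9* and *Ptk2b*, and *Fabp5* to *Lgals3*, *Galnt6*, *Runx3*, *Ccrl2* and *Adam8*. *Mpeg1*, which encodes a pore-forming protein of phagosomes, had 75722 ± 5541 in gal-3+ macrophages, 59695 ± 3513 in MDMs and 3485 ± 239 in SkMRMs. *Nr1h3*, which encodes the oxysterol receptor LXR alpha, had 1109 ± 112 in gal-3+ macrophages, 907 ± 83.4 in MDMs and 138 ± 18.8 in SkMRMs. *Trem2* was nearest to *Neurl3*, *Cx3cr1*, *St18*, *Acp5* and *Stra6l*, and *Acp5*, the tartrate-resistant phosphatase, had 3412 ± 294 in gal-3+ macrophages, 922 ± 89.7 in MDMs and 140.5 ± 27.7 in SkMRMs. *Cd9* was nearest to *Mgrn1*, *Nr1h3*, *Ptk2b*, *Ubl3* and *Wsb2*. *Cd63* was nearest to *Slc48a1*, *Unc93b1*, *Secisbp2l*, *Mfge8* and *Ppm1f*, and *Mfge8*, a bridge between dying cells and phagocytes, had 3989 ± 488 in gal-3+ macrophages, 449 ± 50.6 in MDMs and 1355 ± 423 in SkMRMs. By Spearman correlation, none of the 5 genes was kept for *Spp1*, *Gpnmb*, *Fabp5*, *Trem2* and *Cd9*, and 1 was kept for *Cd63*.

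Promoters of *Spp1* and *Gpnmb* are shown because these genes had the largest gap between gal-3+ macrophages and SkMRMs, and those of *Trem2* and *Cd63* because these genes were called between the dystrophic populations. Each is the 250 bases before the start in RefSeq (GRCm38.p6), 5′ to 3′ on the strand of the gene, with capitals at matches of any of 4 motifs searched on both strands. The motifs were CACGTG, the E-box, CATGTG, an M-box core, TGANTCA, the AP-1 site, and GAGGAA, a core of PU.1 sites.
*Spp1*, chr5:104434861-104435110, plus strand: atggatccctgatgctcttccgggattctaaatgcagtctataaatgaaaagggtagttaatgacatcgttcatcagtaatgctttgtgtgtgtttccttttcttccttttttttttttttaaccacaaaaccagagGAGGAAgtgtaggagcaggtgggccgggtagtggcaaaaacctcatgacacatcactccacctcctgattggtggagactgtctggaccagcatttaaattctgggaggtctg
*Gpnmb*, chr6:49036268-49036517, plus strand: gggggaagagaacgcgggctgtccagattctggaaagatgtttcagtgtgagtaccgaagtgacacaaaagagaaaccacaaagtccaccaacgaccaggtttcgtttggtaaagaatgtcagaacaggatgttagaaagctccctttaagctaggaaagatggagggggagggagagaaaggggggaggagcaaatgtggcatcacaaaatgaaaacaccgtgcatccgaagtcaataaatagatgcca
*Trem2*, chr17:48346151-48346400, plus strand: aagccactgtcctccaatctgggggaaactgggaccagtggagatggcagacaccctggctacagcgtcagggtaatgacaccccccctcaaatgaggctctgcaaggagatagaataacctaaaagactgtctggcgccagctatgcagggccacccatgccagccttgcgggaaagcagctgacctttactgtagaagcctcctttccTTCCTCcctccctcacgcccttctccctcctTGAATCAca
*Cd63*, chr10:128909095-128909344, plus strand: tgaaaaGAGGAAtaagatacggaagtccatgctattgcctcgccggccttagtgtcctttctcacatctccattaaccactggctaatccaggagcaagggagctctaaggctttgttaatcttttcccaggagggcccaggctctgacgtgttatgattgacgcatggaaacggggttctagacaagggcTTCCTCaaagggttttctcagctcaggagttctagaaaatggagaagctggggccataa

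Promoters were matched for 5 of the 6 genes, all but *Fabp5*. *Spp1* has another RefSeq start further into the gene, whose window (chr5:104435942-104436191) held no match of the 4 motifs and is not shown. The *Cd63* window shown lies within the GENCODE M21 span of that gene (chr10:128900989-128912822), downstream of the start given there. GAGGAA was matched in *Spp1* at bases -113 to -108 from the start, in *Trem2* at -40 to -35 on the minus strand and in *Cd63* at -244 to -239 and, on the minus strand, at -59 to -54, against 22.9% of 14155 promoters of genes in the table. TGANTCA was matched at -9 to -3 in *Trem2*, against 4.87% of promoters, and CATGTG on the minus strand at -38 to -33 in *Cd9*, against 7.96%. CACGTG was matched in none of the 5 genes and in 7.83% of promoters. *Gpnmb* held no match in these bases. With the 50 bases after the start added, which was chosen after these windows had been seen, *Gpnmb* held TGACTCA at bases 9 to 15 after the start, where 5.57% of promoters held TGANTCA in the longer window. No match overlapped another. A match describes letters in this window only.

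Receptors of osteopontin are CD44 and integrins. Of 11 such genes, 4 were higher and 1 was lower for gal-3+ macrophages relative to SkMRMs, and 4 were higher and 2 (*Itga9* and *Itgb6*) were lower in MDMs than in SkMRMs. *Cd44*, *Itgav*, *Itgb5* and *Itga4* were the higher ones in both. To set beside this list and those below, 5.34% of all genes were higher and 11.9% lower for gal-3+ macrophages relative to SkMRMs. For MDMs relative to SkMRMs 8.81% were higher and 18.0% lower. For gal-3+ macrophages relative to MDMs 8.19% were higher and 3.32% lower. The list's median log2 fold change was 0.36 for gal-3+ macrophages over SkMRMs and -0.06 for MDMs over SkMRMs. Against MDMs, 2 of the 11 were higher in gal-3+ macrophages and none was lower, with a median of 0.27. *Cd44* had 35605 ± 3185 in gal-3+ macrophages, 70974 ± 5432 in MDMs and 15852 ± 1758 in SkMRMs, higher in both dystrophic populations than in SkMRMs, with a log2 fold change of 1.17 in gal-3+ macrophages and 2.17 in MDMs. For gal-3+ macrophages over MDMs that of *Cd44* was -0.997 (standard error 0.09, adjusted p = 3.0e-07, limma), just under 2-fold. It passed as lower without gal-3+ library mdx3, gal-3+ library mdx5 or MDM library mdx1, at -1.06 to -1.01. *Itgav*, the integrin alpha v chain, had 10884 ± 1259.8 in gal-3+ macrophages, 10682 ± 638 in MDMs and 1953 ± 239 in SkMRMs, with log2 fold changes over SkMRMs of 2.48 in gal-3+ macrophages and 2.46 in MDMs. *Itgb5*, a beta chain that pairs with it, had 18555 ± 1021 in gal-3+ macrophages, 11081 ± 622 in MDMs and 2255 ± 356 in SkMRMs. *Itgb3*, another such chain, averaged 109.9 ± 45.5 in gal-3+ macrophages, 50.5 ± 15.9 in MDMs and 62.9 ± 11.7 in SkMRMs and passed no test. *Itga9* was lower in MDMs (646 ± 168) than in SkMRMs (4459 ± 260.4) and higher in gal-3+ macrophages (4751 ± 698) than in MDMs, with a difference of 2.90 (standard error 0.14, adjusted p = 2.0e-10) on the log2 scale. The lower gene of gal-3+ macrophages, *Itga8*, lost its call without gal-3+ library mdx1, SkMRM library WT1 or SkMRM library WT2, at log2 fold changes of -1.02 to -0.95.

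Osteopontin is cut, cross-linked and phosphorylated by enzymes, and 8 of 10 listed genes of that kind were in the table. In gal-3+ macrophages 3 were higher and 3 lower than in SkMRMs, and in MDMs 3 were higher and 2 lower, where over all genes 11.9% were lower in the comparison of gal-3+ macrophages and 18.0% in that of MDMs. The call of *Tgm1*, lower in gal-3+ macrophages, was lost without gal-3+ library mdx1, at a log2 fold change of -0.97. *Mmp12*, which encodes macrophage elastase, had 4819.7 ± 447 in gal-3+ macrophages, 1051 ± 284 in MDMs and 117 ± 37.5 in SkMRMs and was higher in gal-3+ macrophages than in MDMs (log2 fold change 2.23, standard error 0.18, adjusted p = 9.1e-08). *Tgm2*, a transglutaminase that cross-links matrix proteins, had 16994 ± 1031 in gal-3+ macrophages, 21174 ± 3641 in MDMs and 908 ± 420.1 in SkMRMs. *Fam20c*, the kinase that phosphorylates secreted proteins, had 6374 ± 762 in gal-3+ macrophages, 8885 ± 839.9 in MDMs and 650.1 ± 45.0 in SkMRMs. *Mmp9*, a gelatinase, was lower in both dystrophic populations than in SkMRMs, at 107 ± 68.8 in gal-3+ macrophages, 325 ± 107 in MDMs and 2536 ± 257 in SkMRMs. *F13a1*, the coagulation transglutaminase, was lower too, at 17203 ± 1598 in gal-3+ macrophages, 33827 ± 4638 in MDMs and 121743 ± 1952 in SkMRMs. *Dmp1*, the 1 of 4 listed relatives of *Spp1* analysed here, averaged 15.5 ± 7.45 in gal-3+ macrophages, 7.28 ± 5.82 in MDMs and 29.8 ± 21.9 in SkMRMs and passed no test.

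Regulators and partners of *Gpnmb* include the factors that switch on lysosomal genes. Of 9 such genes, 1 (*Adam10*) was higher in gal-3+ macrophages relative to SkMRMs, 2 were higher (*Adam10* and *Tfeb*) and 1 was lower (*Sdc4*) in MDMs than in SkMRMs, and none was called between gal-3+ macrophages and MDMs. The call of *Tfeb* was lost without MDM library mdx4, at a log2 fold change of 0.98, and 2 genes were higher in gal-3+ macrophages without gal-3+ library mdx3 or SkMRM library WT2. The factor *Mitf*, which drives *Gpnmb* in pigment cells and osteoclasts, had 4447 ± 473 in gal-3+ macrophages, 4359 ± 292 in MDMs and 3102 ± 370.4 in SkMRMs, with log2 fold changes over SkMRMs of 0.52 in gal-3+ macrophages and 0.50 in MDMs, under 2-fold. Its relative *Tfec* had 732 ± 99.0 in gal-3+ macrophages, 674 ± 90.4 in MDMs and 812 ± 79.9 in SkMRMs and passed no test. *Adam10*, the protease that sheds the GPNMB ectodomain, was higher in both dystrophic populations than in SkMRMs, at 8314 ± 386 in gal-3+ macrophages, 8869.6 ± 585 in MDMs and 3647 ± 10.8 in SkMRMs. Osteoclasts also express *Gpnmb*, *Spp1* and *Trem2*, and 9 osteoclast genes summed to 20259 to 24192 in gal-3+ libraries, 9349 to 10853 in MDM libraries and 10198 to 11273 in SkMRM libraries. Of those 9 genes, *Acp5*, *Ocstamp*, *Dcstamp* and *Atp6v0d2* were higher and *Mmp9* was lower in both dystrophic populations than in SkMRMs. *Atp6v0d2*, a subunit of the vacuolar proton pump, had 8954 ± 992 in gal-3+ macrophages, 1739 ± 419.7 in MDMs and 375 ± 9.32 in SkMRMs, with a difference of 2.38 (standard error 0.13, adjusted p = 5.8e-10) on the log2 scale between gal-3+ macrophages and MDMs. *Dcstamp*, which encodes a cell fusion protein, averaged 112 ± 28.1 in gal-3+ macrophages, 103 ± 62.5 in MDMs and 5.53 ± 9.59 in SkMRMs.

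Among relatives of *Fabp5*, 7 of 13 listed carriers were in the table. In gal-3+ macrophages 3 were higher and 1 (*Crabp1*) lower than in SkMRMs, and in MDMs 2 were higher and 3 (*Crabp1*, *Crabp2* and *Pmp2*) lower. The 1 lower gene of gal-3+ macrophages became 2 without gal-3+ library mdx3, gal-3+ library mdx4 or MDM library mdx4. *Fabp7*, the brain carrier, had 137 ± 27.6 in gal-3+ macrophages, 142 ± 12.7 in MDMs and 8.89 ± 5.54 in SkMRMs, and *Fabp3*, the heart and muscle carrier, had 325 ± 51.2 in gal-3+ macrophages, 399.7 ± 35.8 in MDMs and 84.8 ± 24.0 in SkMRMs. *Fabp4*, the carrier of fat cells, which endothelium also expresses, had 4414 ± 744 in gal-3+ macrophages, 2958 ± 219 in MDMs and 2151 ± 869 in SkMRMs, with a difference of 1.12 (standard error 0.21, adjusted p = 3.6e-04) on the log2 scale between gal-3+ macrophages and SkMRMs. That call was lost without SkMRM library WT3, at 0.72 (adjusted p = 8.1e-05, limma).

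Of 18 genes of fatty acid uptake, activation and storage, 5 were higher in gal-3+ macrophages relative to SkMRMs and 5 were higher in MDMs than in SkMRMs, and none was lower in either. The median log2 fold change was 0.36 in gal-3+ macrophages and 0.39 in MDMs, over SkMRMs. The call of *Dgat1*, 1 of the 5 higher in gal-3+ macrophages, was lost without SkMRM library WT2, at a log2 fold change of 0.84. *Pparg*, a nuclear receptor for fatty acids, had 957 ± 141 in gal-3+ macrophages, 1416 ± 136 in MDMs and 172 ± 20.6 in SkMRMs. *Plin2*, the coat protein of lipid droplets, had 23177 ± 1126 in gal-3+ macrophages, 21482 ± 1647 in MDMs and 9179 ± 907 in SkMRMs, and *Hilpda*, an inhibitor of lipolysis on the droplet, had 1045 ± 119 in gal-3+ macrophages, 950.5 ± 170.2 in MDMs and 210.4 ± 65.7 in SkMRMs. *Slc27a1*, a fatty acid transporter, was higher in gal-3+ macrophages (3716 ± 337) than in MDMs (1286 ± 202), with 1404 ± 195 in SkMRMs. *Dgat2*, which makes triglyceride, averaged 229 ± 59.4 in gal-3+ macrophages and was lower there than in MDMs (529 ± 139), with 119 ± 14.5 in SkMRMs.

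Relatives of *Trem2* include receptors that activate neutrophils and monocytes. Of 6 relatives and adaptors in the table, 4 were higher in gal-3+ macrophages relative to SkMRMs and 5 were higher in MDMs than in SkMRMs, while 2, *Trem1* and *Trem3*, were below MDMs in gal-3+ macrophages, where 3.32% of all genes were lower. *Trem1*, which encodes an amplifier of inflammation on myeloid cells, had normalized counts of 683, 806, 646 and 996 in gal-3+ macrophages, 3701, 4700.1 and 5109.9 in MDMs and 10.5, 3.88 and 1.80 in SkMRMs, with no overlap between populations and a difference of -2.53 (standard error 0.33, adjusted p = 1.5e-05) on the log2 scale between gal-3+ macrophages and MDMs. *Trem2* had a log2 fold change of 1.22 in that comparison. *Trem3* had normalized counts of 10.1, 5.33, 2.05 and 1.95 in gal-3+ macrophages, 133, 179.9 and 176 in MDMs and 0, 0 and 0.722 in SkMRMs, highest in MDMs without overlap. *Tyrobp*, the adaptor DAP12 through which TREM2 and TREM1 signal, had 7580.1 ± 316 in gal-3+ macrophages, 8556 ± 775 in MDMs and 3281 ± 220.4 in SkMRMs, with log2 fold changes over SkMRMs of 1.21 in gal-3+ macrophages and 1.38 in MDMs. The other adaptor, *Hcst*, averaged 83.5 ± 36.5 in gal-3+ macrophages, 58.8 ± 3.03 in MDMs and 46.1 ± 15.5 in SkMRMs and passed no test. The study states a gate of live F4/80+ CD11b+ Siglec-F- cells for its single-cell sort. Whether the bulk sort used that gate is not given in the sources used here. Of its genes, *Itgam*, which encodes CD11b, and *Siglecf* were called higher in gal-3+ macrophages, MDMs or both than in SkMRMs. Neutrophils also express *Trem1*, and 8 neutrophil genes, led by *Csf3r* and *Mmp8*, summed to 3369 to 4071 in gal-3+ libraries, 5085 to 5783 in MDM libraries and 526 to 811 in SkMRM libraries. Over SkMRMs, 2 of the 8 were higher in gal-3+ macrophages and 3 in MDMs, and none was lower. The median log2 fold changes were -0.23 in gal-3+ macrophages and 0.91 in MDMs. Against MDMs, 2 were lower in gal-3+ macrophages and none was higher, with a median of -1.11. The part of neutrophils in the *Trem1* result was not tested.

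Downstream of TREM2, 3 of 15 signalling and shedding genes were higher in gal-3+ macrophages relative to SkMRMs and 5 were higher in MDMs than in SkMRMs, and none was called between gal-3+ macrophages and MDMs. Of the 3, *Vav1* lost its call without SkMRM library WT1, SkMRM library WT2 or gal-3+ library mdx4, at log2 fold changes of 0.987 to 0.998. *Syk*, the kinase recruited by DAP12, had 20829 ± 1445 in gal-3+ macrophages, 22624 ± 755 in MDMs and 13976 ± 1227 in SkMRMs, with log2 fold changes over SkMRMs of 0.58 in gal-3+ macrophages and 0.70 in MDMs, under 2-fold. *Lat2*, an adaptor, had 3494 ± 263 in gal-3+ macrophages, 4342 ± 84.6 in MDMs and 721 ± 72.9 in SkMRMs. *Adam17*, a protease that sheds TREM2, had 6332 ± 382 in gal-3+ macrophages, 7759 ± 331 in MDMs and 3341 ± 378 in SkMRMs and was higher in MDMs than in SkMRMs, with a log2 fold change of 1.22. *Plcg2*, the phospholipase of the pathway, had 5824 ± 393 in gal-3+ macrophages, 10826 ± 874 in MDMs and 2987 ± 379 in SkMRMs and was higher in MDMs than in SkMRMs (log2 fold change 1.86, standard error 0.10, adjusted p = 4.9e-11).

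Tetraspanins form a large family of membrane organizers. Of 23 others in the table, 12 were above MDMs in gal-3+ macrophages and none was lower, with a median log2 fold change of 1.03. Over all genes 8.19% were higher and 3.32% lower in that comparison. In MDMs 10 of the 23 were lower than in SkMRMs and none was higher, with a median of -0.73, where 18.0% of all genes were lower and 8.81% higher. In gal-3+ macrophages against SkMRMs 1 was higher and 2 (*Cd81* and *Tspan17*) were lower, with a median of 0.22, where 5.34% of all genes were higher and 11.9% lower. The call of *Tspan17* was lost without any 1 of the 3 SkMRM libraries or of gal-3+ libraries mdx3, mdx4 and mdx5, at log2 fold changes of -1.10 to -0.93, and the count of 2 was 1 in 5 of these 6 cases. *Cd81*, a partner of CD9 at the cell surface, had 2464 ± 201 in gal-3+ macrophages, 530.1 ± 46.3 in MDMs and 8074 ± 505 in SkMRMs, so it was lower in both dystrophic populations than in SkMRMs while *Cd9* was higher. *Tspan4*, which builds migrasomes, had 1132 ± 102 in gal-3+ macrophages, 338 ± 75.8 in MDMs and 1015 ± 106 in SkMRMs, and *Tspan3* had 1706 ± 70.5 in gal-3+ macrophages, 727 ± 58.9 in MDMs and 2374 ± 102 in SkMRMs. *Tspan13* had 1568 ± 121 in gal-3+ macrophages, 485 ± 106 in MDMs and 352 ± 113 in SkMRMs and was the gene that was higher in gal-3+ macrophages relative to SkMRMs (log2 fold change 2.21, standard error 0.19, adjusted p = 5.8e-08). The leukocyte tetraspanin *Cd53* had 8665 ± 483 in gal-3+ macrophages, 11124 ± 329 in MDMs and 6139 ± 379 in SkMRMs and *Cd82* had 1443 ± 120.4 in gal-3+ macrophages, 863 ± 83.0 in MDMs and 915 ± 111 in SkMRMs, with every difference of either under 2-fold. The count of 12 fell to 7 without gal-3+ library mdx1 and to 7 without MDM library mdx5. In the same comparison 10 of 12 muscle genes and 7 of 12 endothelial genes were above MDMs in gal-3+ macrophages, and their part in the tetraspanin result was not tested.

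**Figure D5:**
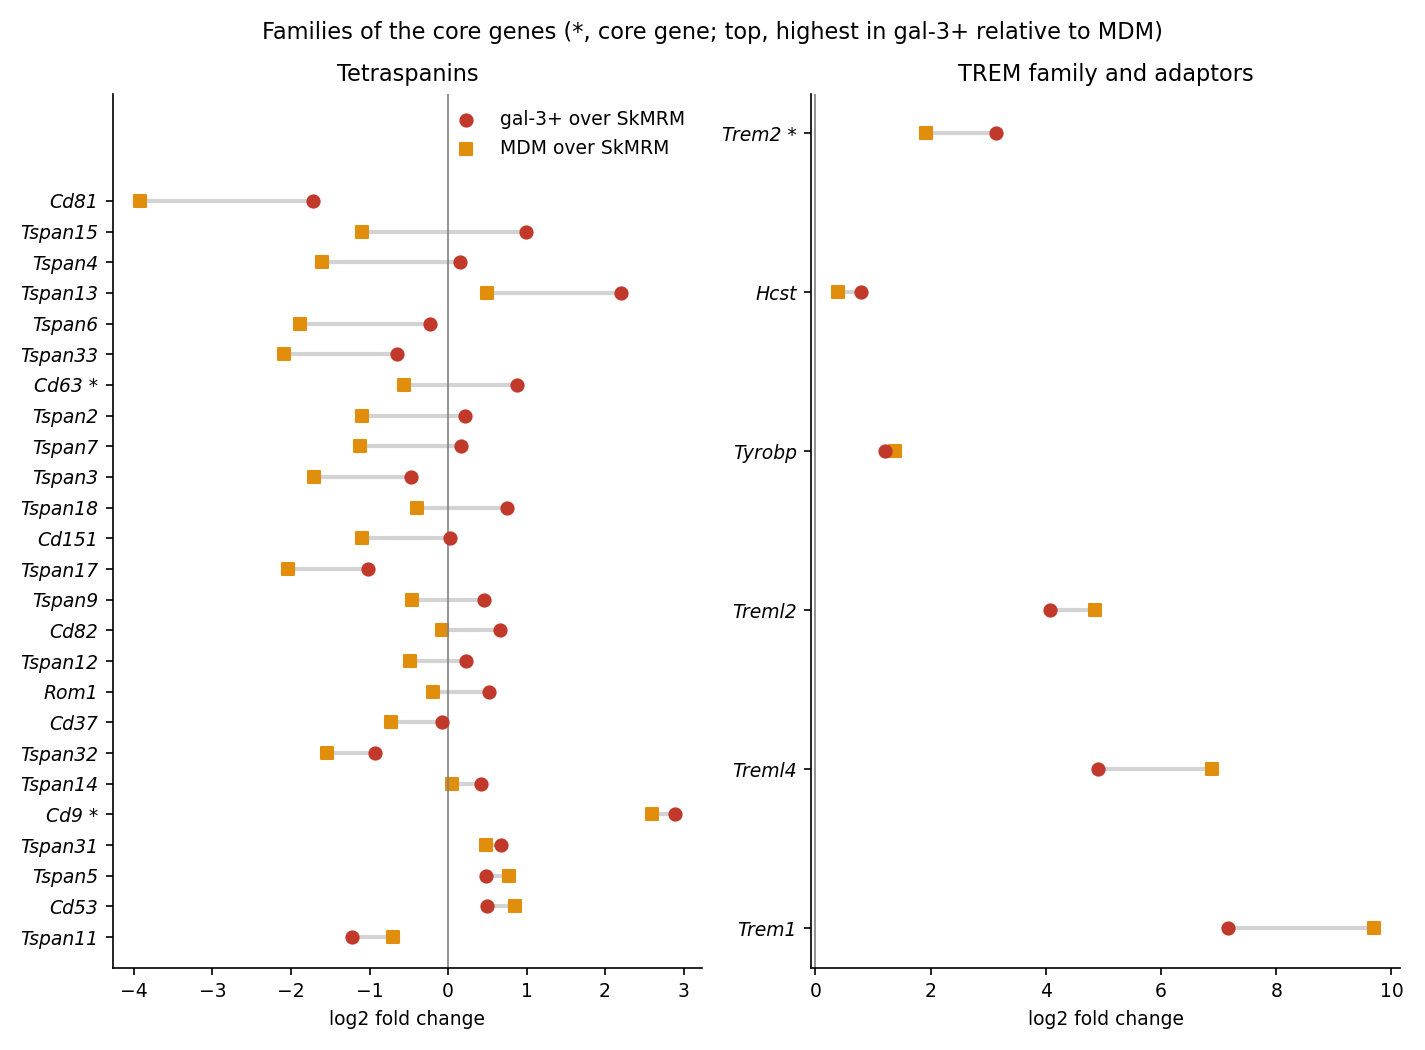
Log2 fold changes over SkMRMs for gal-3+ macrophages (circles) and MDMs (squares), for 23 other tetraspanins and for the TREM family and its adaptors, each with the core genes of that family (asterisk), in the order of the difference between gal-3+ macrophages and MDMs. *Trem3* is left out because its SkMRM libraries held at most 0.722 normalized counts. Most tetraspanins have the circle to the right of the square, and *Trem1*, *Treml2* and *Treml4* have it to the left, opposite to *Trem2*.

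Partners of the tetraspanins are integrins, proteases and immunoglobulin proteins. Of 12 in the table, 4 were higher and 1 was lower for gal-3+ macrophages relative to SkMRMs, and 4 were higher and 3 were lower in MDMs than in SkMRMs, the 3 falling to 1 without MDM library mdx1 or SkMRM library WT1. The lower gene of gal-3+ macrophages, *Hbegf*, lost its call without gal-3+ library mdx1, SkMRM library WT1 or SkMRM library WT2, at log2 fold changes of -0.94 to -0.93, and 2 genes were lower without SkMRM library WT3. *Timp1*, 1 of the 4 higher genes of gal-3+ macrophages, lost its call without SkMRM library WT3, at a log2 fold change of 0.98. *Itga6*, the integrin alpha 6 chain, which binds laminin beside CD9, had 10903 ± 876 in gal-3+ macrophages, 6168 ± 479 in MDMs and 1328 ± 379 in SkMRMs, with log2 fold changes over SkMRMs of 3.08 in gal-3+ macrophages and 2.26 in MDMs. *Igsf8*, which binds CD9 and CD81 directly, had 4272 ± 425 in gal-3+ macrophages, 3567 ± 404 in MDMs and 1767 ± 253 in SkMRMs, and its call in MDMs was lost without MDM library mdx5 or SkMRM library WT3.

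The lipid-associated program also holds genes of lipoprotein handling and the lysosome. Of 26 such genes, 17 were higher in gal-3+ macrophages relative to SkMRMs and none was lower, with a median log2 fold change of 1.38. Over all genes 5.34% were higher and 11.9% lower in that comparison. In MDMs 13 of the 26 were higher and 2 were lower than in SkMRMs, with a median of 1.03, where 8.81% of all genes were higher and 18.0% lower. *Lgals3* is among the genes higher in both, and its protein, gal-3, was used to sort gal-3+ macrophages and MDMs. Against MDMs, 6 of the 26 were higher in gal-3+ macrophages (*Apoe*, *Ctsb*, *Ctsl*, *Itgax*, *Timp2* and *Igf1*) and 3 were lower (*Csf1*, *Ccl6* and *Lilrb4a*), with a median of 0.25. There 8.19% of all genes were higher and 3.32% lower. *Apoe*, the carrier of cholesterol and ligand of TREM2, had normalized counts of 560947, 644173, 711845 and 751879.8 in gal-3+ macrophages, 160618, 140062 and 155281 in MDMs and 223904, 227472 and 187206 in SkMRMs, highest in gal-3+ macrophages without overlap, and its log2 fold change for gal-3+ macrophages over MDMs was 2.13 (standard error 0.12, adjusted p = 1.2e-09). *Itgax*, which encodes CD11c, had 4677 ± 208 in gal-3+ macrophages, 1232 ± 282 in MDMs and 61.4 ± 32.8 in SkMRMs. *Lpl*, the lipoprotein lipase, had 34850.4 ± 6022 in gal-3+ macrophages, 18166 ± 4070.0 in MDMs and 9621 ± 1763 in SkMRMs, with a difference of 0.95 (standard error 0.15, adjusted p = 1.2e-04) on the log2 scale between gal-3+ macrophages and MDMs, just under 2-fold. The lysosomal proteases *Ctsd* and *Ctsl* had 135144 ± 9215 in gal-3+ macrophages, 78599 ± 1776 in MDMs and 18785 ± 1359.9 in SkMRMs for *Ctsd* and 40679 ± 1553 in gal-3+ macrophages, 18995 ± 2088 in MDMs and 10020.2 ± 243 in SkMRMs for *Ctsl*. *Clec7a*, the glucan receptor dectin-1, had 10569 ± 939 in gal-3+ macrophages, 16804 ± 710.4 in MDMs and 993 ± 209 in SkMRMs, and *Axl*, a receptor for dying cells, had 12024 ± 852 in gal-3+ macrophages, 6542 ± 487 in MDMs and 2218 ± 328 in SkMRMs. *Igf1*, a growth factor for muscle, was lower in MDMs than in SkMRMs and higher in gal-3+ macrophages than in MDMs, at 8527 ± 229 in gal-3+ macrophages, 2045 ± 572 in MDMs and 11447 ± 393 in SkMRMs. *Timp2*, an inhibitor of matrix proteases, had 17880.0 ± 1061 in gal-3+ macrophages, 4404 ± 289 in MDMs and 28660.1 ± 3146 in SkMRMs, and fibroblasts, whose markers were highest in SkMRM libraries, express it too.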

How the data were processed

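Bulk RNA was measured in 10 libraries, 4 of gal-3+ macrophages, 3 of MDMs and 3 of SkMRMs. Per the paper's methods and the labels, libraries were made from 2 ng of total RNA with a stranded low-input kit, read in pairs of 100 bases, aligned to mm10 with TopHat 2.0.14 and GENCODE M9 and counted per gene with HTSeq 1.99.2. The deposited values are a signal per gene, that is counts that the authors divided by a DESeq2 1.28.1 size factor per library. The 18 columns of the authors' own comparisons (fold changes, errors and p-values) were not used. Columns were matched to populations by name, since their numbers differ from the replicate numbers of the sample titles. A column is therefore a replicate of its population and not of a single sample title.

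Values were put on the scale log2(normalized count + 1) and a linear model was made in limma 3.58.1 (R 4.3.3) from all 10 libraries and 17001 genes, with 1 mean per population, a trended variance and Benjamini-Hochberg adjustment. A call needed a 2-fold difference and an adjusted p below 0.01. Fold changes are on that log2 scale, which understates low genes. A value of 1 read per library could be found from the steps between low values, and 100% of values came out as whole reads within 0.001. On those reads edgeR 4.0.16 called 997 genes higher and 1794 lower and DESeq2 1.42.0 called 959 higher and 2246 lower in gal-3+ macrophages over SkMRMs, against 908 and 2027 with limma. The fit was also run on simulated data with changes in gal-3+ libraries only, unlike these data, and its outcome is not reported here. Precision is given as SDs and standard errors between libraries, which hold counting error. Positions are from GENCODE M21.

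The 6 genes and all gene lists were chosen with earlier results of these data known. Named genes are the 6, the 5 most correlated with each, up to 6 called genes per list and comparison with the largest change, genes fixed for their role, and the most abundant or higher markers of other cells. *Ccl6*, *Cd68*, *Ctsb*, *Dmp1*, *Trem3* and genes named only to spell out a small count are outside that rule and were named with their values seen. Alternatives were other pseudocounts, a minimum of 50 in at least 3 libraries, TMM and upper-quartile scaling, edgeR, DESeq2, only the populations compared, the column number as a replicate block, each library left out, and other thresholds.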

Additional observations from a re-analysis of the deposited data

Results flagged for a closer look

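*Ptgfrn*, a partner of CD9 and CD81, had 1 library apart from the others of its population. In gal-3+ library mdx5 it had 1207 normalized counts, against 938 to 965 in the other 3 gal-3+ libraries, so that the gap to the nearest library was 0.900 of the whole range. Chance gives such a gap in about 1 in 20 groups, and 73 genes were looked at in the 4 gal-3+ libraries, of which this 1 was past the limit. None of the 6 genes of the report was. Populations of 3 libraries were not looked at in this way.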

How the results depend on the processing

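The 6 genes in 3 comparisons gave 18 results and 372 values under the alternatives. None reversed a call and none lost one. The sign of *Spp1* between gal-3+ macrophages and MDMs, which was not called, changed without MDM library mdx1. Of the 372 values, 366 left the call as it was. The other 6 gained a call, *Cd63* over SkMRMs and *Gpnmb* between the dystrophic populations under weaker thresholds, and *Gpnmb* without MDM library mdx4. Upper-quartile scaling moved the median log2 fold change of all genes to -0.23 for gal-3+ macrophages over SkMRMs and -0.32 for MDMs over SkMRMs. Libraries left out in turn gave -0.14 to 0.36 for *Spp1*, 0.88 to 1.06 for *Gpnmb*, 1.16 to 1.27 for *Trem2* and 1.36 to 1.48 for *Cd63*, on the log2 scale, for gal-3+ macrophages over MDMs.

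Numbers shared by columns pair no samples by the labels, and deviations from the population means correlated at -0.080, 0.110 and 0.064 between gal-3+ and MDM libraries that share one. With the number as a replicate block, in only the libraries that share one, gal-3+ macrophages over MDMs gave log2 fold changes of 1.4 for *Cd63*, 1.27 for *Trem2* and 0.97 for *Gpnmb*, and no call of the 6 genes changed. With the block, in those fewer libraries, 1145 genes were called lower in gal-3+ macrophages relative to SkMRMs (main, 2027). Higher in gal-3+ macrophages than in MDMs were 854 genes (main, 1392) and 8 tetraspanins (main, 12). The part of the block and that of the libraries left out cannot be told apart in these counts. WT and mdx libraries came from different mice, so a shared number marks no mouse in the comparison with SkMRMs. MDMs and SkMRMs share 1 number, so no such fit was made for them. With no fold threshold 3063 genes were higher in gal-3+ macrophages relative to SkMRMs (main, 908), 3793 in MDMs than in SkMRMs (main, 1498) and 2460 in gal-3+ macrophages than in MDMs, with 2212 lower (main, 564). At a fold of 1.5 and an adjusted p of 0.05 those counts were 2224, 3249, 2589 and 1785, with 3657 lower in gal-3+ macrophages relative to SkMRMs. For the other named genes, 145 results gave 2988 values, of which 54 lost a call and 35 gained one. Of 1364 list counts, 124 moved by more than 1.5 times. Features of the proteins were not analysed here.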
